A study of Mus musculus with 30 samples.

Results

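The genes described are 10 of the 34871 genes in a table of mouse brain RNA levels: Wipi1, its paralogue Wipi2, the autophagosome formation genes Atg5, Atg7, Atg9a, Ulk1, Becn1 and Map1lc3b, and the transcription factors Tfeb and Tfe3. They were picked by name, all 10 were found in the table, and all 10 had a mean level above the filter of 0. Wipi1 was picked because its level was lower in knockout than in wild-type brains, so that difference is given as a description with no test. The other genes were picked as its partners in the same process. The brains came from 30 mice aged 8 months of a Tmem106b knockout line: 10 Tmem106b +/+ (WT), 10 Tmem106b +/- (HET) and 10 Tmem106b -/- (KO). Tmem106b encodes a membrane protein of lysosomes and late endosomes. RNA of the cerebral hemispheres of every brain was extracted in the same experiment and sequenced. Cohort 1 gave 3 female and 3 male mice to each genotype, and cohort 2 gave 2 of each sex. The sources used here do not give the strain, the part of the gene that was altered or what the cohorts stand for.

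Autophagy encloses cell material in a double membrane, the autophagosome, and hands it to the lysosome. The Ulk1 kinase complex starts the process, and the lipid kinase complex that holds beclin 1 (Becn1) then makes the lipid PI3P on the membrane that grows. Wipi1 and Wipi2 are propeller-shaped proteins that bind PI3P there. Vesicles with the lipid scramblase Atg9a seed the membrane. Atg7, an activating enzyme, and Atg5, part of a ligase, attach LC3 proteins such as Map1lc3b to it. Tfeb and Tfe3 are transcription factors that move to the nucleus when lysosomes or nutrients are short, and in human cells WIPI1 is among the reported targets of TFEB. Neurons, which do not divide, are known to depend on autophagy. Several of these proteins are regulated after translation, so an RNA level is no measure of autophagic activity.

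Values are log2 RPKM (reads scaled to gene length and to library size, on a log2 scale) after the authors' normalization, and differences are log2 differences from a limma fit with genotype, sex, cohort and RNA integrity number (RIN) as terms. The words rise and fall are kept for genes at a Benjamini-Hochberg adjusted p under 0.05 over the 23695 genes with a mean above 0. Read depth is unknown, and precision was judged from the spread between mice. Library medians lay between 2.82 and 2.91. Tmem106b followed the labels: it ranged from 9.06 to 9.27 in WT, 8.54 to 8.62 in HET and 7.43 to 7.67 in KO, and the KO mean was 32.0% of WT. Markers of neurons were high in all libraries (mean of 8 markers 10.77 to 10.84), and no marker of the 10 cell type lists had a mean at or below 0. One KO library (replicate 9) stood apart in 5 blood genes, with a mean of 11.6 against at most 9.46 in the others.

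Promoter sequences were taken from RefSeq (GRCm38.p6) for 9 of the 10 genes, as windows of 250 bases before and 50 after each annotated start. They are printed for Wipi1, the gene whose level differed with genotype, and for Wipi2, its paralogue, whose level passed no test of genotype, cohort or sex. Map1lc3b is printed as the gene with the lowest p between cohorts. Capitals mark the GC box GGGCGG, read as CCGCCC on the other strand, a motif chosen after the sequences had been seen. The Wipi1 window is chr11:109611340-109611639 on the minus strand, the Wipi2 window chr5:142629334-142629633 on the plus strand and the Map1lc3b window chr8:121590188-121590487 on the plus strand.
Wipi1: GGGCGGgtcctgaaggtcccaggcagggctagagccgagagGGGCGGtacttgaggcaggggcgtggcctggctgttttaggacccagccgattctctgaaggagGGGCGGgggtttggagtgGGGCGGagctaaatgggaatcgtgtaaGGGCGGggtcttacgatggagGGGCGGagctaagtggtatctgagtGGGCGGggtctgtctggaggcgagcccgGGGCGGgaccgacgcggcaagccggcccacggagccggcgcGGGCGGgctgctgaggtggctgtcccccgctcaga
Wipi2: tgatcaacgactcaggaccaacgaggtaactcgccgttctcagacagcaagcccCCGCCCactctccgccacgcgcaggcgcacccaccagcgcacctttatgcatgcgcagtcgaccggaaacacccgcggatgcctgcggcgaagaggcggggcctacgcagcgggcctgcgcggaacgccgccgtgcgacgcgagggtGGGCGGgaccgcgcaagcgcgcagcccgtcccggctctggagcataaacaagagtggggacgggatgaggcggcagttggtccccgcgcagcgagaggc
Map1lc3b: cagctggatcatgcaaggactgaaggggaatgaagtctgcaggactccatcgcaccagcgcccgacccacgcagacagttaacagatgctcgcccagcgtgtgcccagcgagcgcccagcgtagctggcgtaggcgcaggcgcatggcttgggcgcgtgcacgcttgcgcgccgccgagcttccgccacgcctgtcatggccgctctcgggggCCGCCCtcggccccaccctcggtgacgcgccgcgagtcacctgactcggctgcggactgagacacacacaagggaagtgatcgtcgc
The Wipi1 window held 9 GC boxes, a number reached by 41 of 32851 RefSeq promoter windows (0.125%), while 35.7% of windows held at least 1. Nothing is read from that share, since the motif was chosen on these sequences. The windows were also not matched for GC content, which was 69% for Wipi1. The Wipi2 window held 2, the Map1lc3b window 1 and the Ulk1 window 5. Tfeb and Tfe3 bind E-boxes, and the core CACGTG, which reads the same on both strands, occurred in the windows of Atg5 and Atg7 among the 9 genes and in 7.15% of all windows. With a T before it (TCACGTG or, on the other strand, CACGTGA), which contains the core, it was in the Atg7 window and in 3.77% of all. The related TCATGTG, searched on both strands and not overlapping the core, was in 0 of the 9 genes' windows and in 3.77% of all. The RefSeq start of the Atg7 window lies 27999 bases inside the gene as the table spans it, so that window is not at the outer start of Atg7. The Wipi1 start lies 578 bases inside its gene, so that whole window also lies inside the gene as the table spans it. The E-box surroundings of Atg5 (chr10:44268310-44268345, plus strand, 14 bases before the start) follow, with the core in capitals.
Atg5: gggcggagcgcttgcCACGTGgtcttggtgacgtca
These matches are letters in a window, and no binding was measured.

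Wipi1 (ENSMUSG00000041895, mm10 chromosome 11, 109573331 to 109611967, overlapping no other gene of the table) was lowest in KO and lay between in HET. In WT brains its level ranged from 6.22 to 6.41 with a median of 6.28. In HET it ranged from 6.15 to 6.29 (median 6.21), and in KO from 5.95 to 6.25 (median 6.16). All 10 KO brains were below the WT mean, and 9 of 10 were below the lowest WT brain. As many KO brains or more lay below every WT brain for 35 of the 23695 genes (0.148%), and since Wipi1 was chosen on these same values nothing is read from that share. The ranges still overlapped, through KO replicate 2 at 6.25. The means were 6.29 ± 0.06 in WT, 6.21 ± 0.04 in HET and 6.13 ± 0.09 in KO (SD, n = 10), so the KO level was 89.4% and the HET level 94.6% of WT. The fitted KO minus WT difference was -0.16 ± 0.03 (SE), the value Wipi1 was chosen on. It ranged from -0.18 (without KO replicate 2) to -0.14 (without KO replicate 4, the lowest brain) as each library was left out. The fit without KO replicate 9, the library high in blood genes, is among these fits and lies within this range.

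**Figure D1:**
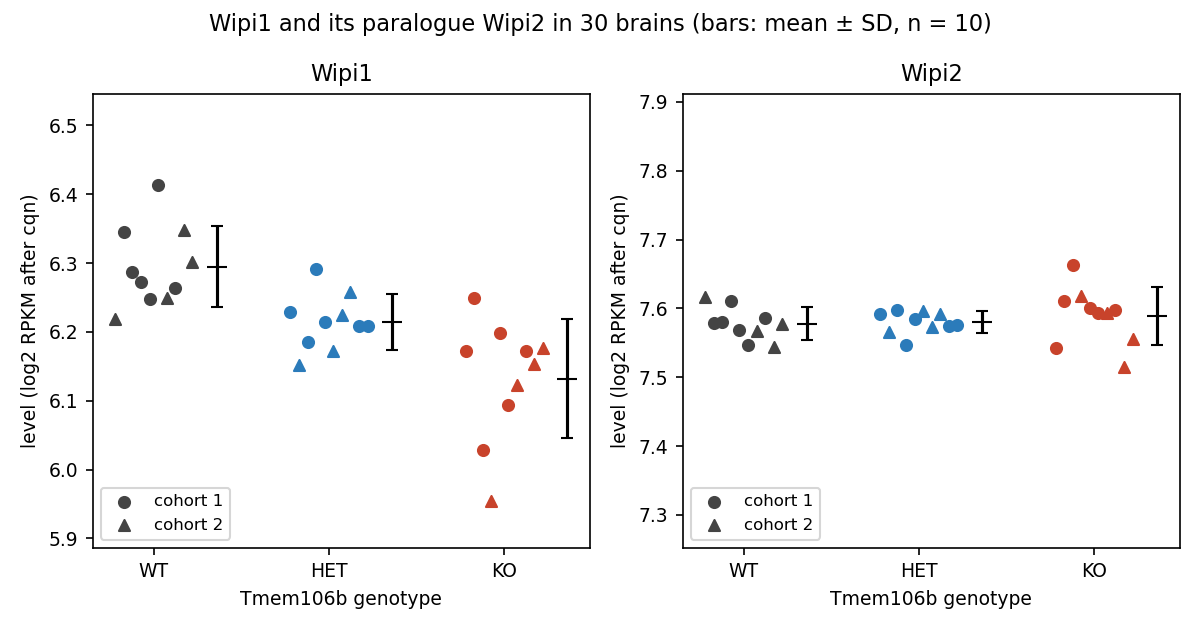
Levels of Wipi1 (left) and Wipi2 (right) in each brain, in log2 RPKM after cqn, by Tmem106b genotype, with circles for cohort 1, triangles for cohort 2 and bars for mean ± SD (n = 10); both axes span the same log2 distance. Wipi1 steps down from a mean of 6.29 in WT to 6.21 in HET and 6.13 in KO, while Wipi2 stays between 7.52 and 7.66 in all brains.

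HET brains were compared with the others to see where 1 intact copy of Tmem106b places Wipi1. All 10 HET brains were below the WT mean and 6 were below the lowest WT brain. The share of all genes with such counts was not determined, so nothing is read from them. The HET minus WT difference was -0.08 ± 0.03 (95% interval -0.15 to -0.02, unadjusted p = 0.00915), and it did not pass over all genes (limma, adjusted p = 0.751). This comparison shares its WT mice with the contrast on which Wipi1 was chosen. The KO minus HET difference, which shares the KO mice with it, was -0.08 ± 0.03 (-0.14 to -0.02, unadjusted p = 0.0137, adjusted p = 0.408). The distance of HET from the midpoint of WT and KO does not depend on that choice. It was -0.0030 ± 0.03 (interval -0.06 to 0.05, limma, adjusted p = 0.995), so a departure larger than 0.06 in size lay outside the interval. Tmem106b itself lay 0.23 ± 0.02 above its midpoint in HET (limma, adjusted p = 4.79e-06). Both midpoints are means of log2 levels. For a change as large as that of Tmem106b, the mean of the unlogged levels lies above such a midpoint. Tmem106b was at 66.3% of WT in HET and 32.0% in KO, so its distance is not read as a departure from copy number.

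The Wipi1 difference had the same sign in each cohort and each sex. These splits reuse the brains on which Wipi1 was chosen, so the shared sign is a description and lends no support. KO minus WT means were -0.15 in cohort 1 and -0.18 in cohort 2, and -0.13 in females and -0.20 in males. HET minus WT means were -0.08 in both cohorts and in both sexes, and they share the WT mice with the contrast on which Wipi1 was chosen. The interaction of KO against WT with sex was -0.08 ± 0.06 (adjusted p = 0.814), and that with cohort was -0.03 ± 0.06 (adjusted p = 0.933). Neither passed, and the sex interval (-0.21 to 0.04) includes both no difference and one larger than the overall effect.

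Wipi2 (ENSMUSG00000029578), whose protein recruits the LC3 ligase to the growing membrane, was among the steadiest genes of its level. It ranged from 7.54 to 7.62 in WT (median 7.58), from 7.55 to 7.60 in HET (7.58) and from 7.52 to 7.66 in KO (7.60). The KO group spans the WT range on both sides, with 2 brains below and 2 above every WT brain. Its KO minus WT difference was 0.01 ± 0.02 and its HET minus WT difference 0.0010 ± 0.02 (interval -0.03 to 0.03, adjusted p = 0.996). Its SD within genotypes was 0.03, against 0.06 for Wipi1, and 0.0664% of genes of similar level had one as small or smaller. Atg9a (ENSMUSG00000033124), the scramblase, ranged from 8.02 to 8.20 in WT (median 8.13), 8.06 to 8.19 in HET (8.13) and 7.98 to 8.19 in KO (8.10). The groups overlapped almost fully, and KO minus WT was -0.03 ± 0.02. Atg9a overlaps Gm29253 and Ankzf1 in the table, and reads shared with them cannot be told apart without strand information.

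Of the genes that start the process, Ulk1 had a KO median below that of WT and Becn1 a KO median close to it. Ulk1 (ENSMUSG00000029512), the initiating kinase, ranged from 8.22 to 8.34 in WT (median 8.26), 8.16 to 8.32 in HET (8.22) and 8.08 to 8.35 in KO (8.21). There were 5 KO and 5 HET brains below the lowest WT brain, yet the highest brain of all was also KO. Nothing is read from these counts, because their share over all genes was not determined. KO minus WT was -0.06 ± 0.03 and HET minus WT -0.05 ± 0.03 (interval -0.10 to 0.01, adjusted p = 0.808). The KO minus WT means of Ulk1 were -0.09 in cohort 1 and 0.0031 in cohort 2, and the interaction with cohort was 0.08 ± 0.05 (adjusted p = 0.694). Becn1 (ENSMUSG00000035086) ranged from 7.73 to 8.02 in WT (median 7.81), 7.76 to 7.88 in HET (7.82) and 7.75 to 7.95 in KO (7.82). The WT and KO groups overlapped throughout, and the WT maximum came from 1 brain, replicate 10. KO minus WT was 0.02 ± 0.03 and HET minus WT 0.01 ± 0.03 (adjusted p = 0.979).

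The conjugation genes and LC3 overlapped between genotypes as well. Atg5 (ENSMUSG00000038160) ranged from 6.95 to 7.15 in WT (median 7.05), 6.99 to 7.17 in HET (7.09) and 6.98 to 7.21 in KO (7.12). Its KO brains reached higher, with 3 above every WT brain, and KO minus WT was 0.05 ± 0.03. Atg7 (ENSMUSG00000030314) ranged from 5.85 to 6.12 in WT (median 5.98), 5.86 to 6.02 in HET (5.97) and 5.84 to 6.02 in KO (5.96). The WT group was the widest, and KO minus WT was -0.03 ± 0.03, a sign that turned in females alone (0.05). Map1lc3b (ENSMUSG00000031812), the LC3 protein that marks autophagosomes, ranged from 8.23 to 8.50 in WT (median 8.38), 8.33 to 8.46 in HET (8.37) and 8.20 to 8.48 in KO (8.37). No shift of the groups was visible, and KO minus WT was -0.0050 ± 0.03. Its interaction of KO against WT with sex was -0.12 ± 0.05 at an unadjusted p of 0.0284, which did not pass (limma, adjusted p = 0.652), with KO minus WT means of 0.05 in females and -0.07 in males.

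The transcription factors had KO minus WT differences above 0 that lay within the spread of WT. Tfe3 (ENSMUSG00000000134) ranged from 5.53 to 5.90 in WT (median 5.69), 5.65 to 5.84 in HET (5.71) and 5.65 to 5.85 in KO (5.74). Only 1 KO brain was below the WT mean, but 0 were above the highest WT brain. KO minus WT was 0.05 ± 0.03. Tfeb (ENSMUSG00000023990) ranged from 3.91 to 4.52 in WT (median 4.46), 4.23 to 4.62 in HET (4.42) and 4.23 to 4.64 in KO (4.38). The low WT end came from replicate 8, and KO minus WT was 0.05 ± 0.06 with it and 0.0076 without it. In HET minus WT, Tfeb stood at 0.07 ± 0.06 (adjusted p = 0.888) and Tfe3 at 0.03 ± 0.03 (adjusted p = 0.911).

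**Figure D2:**
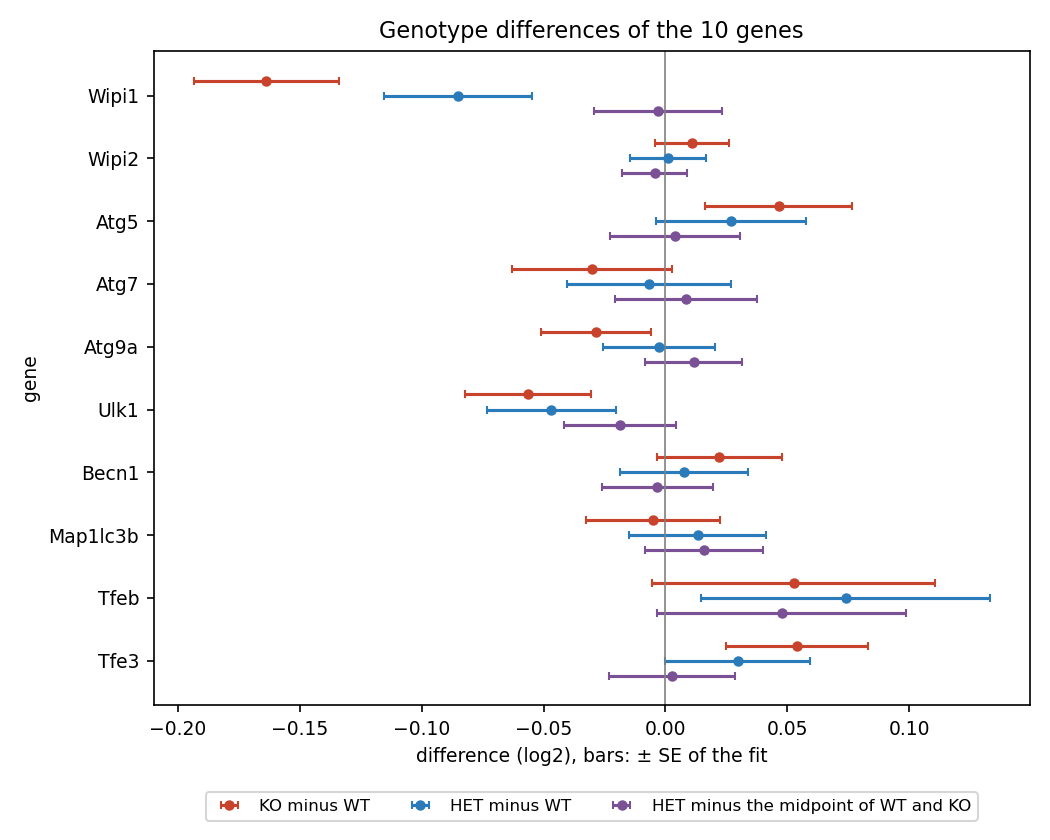
Fitted log2 differences of the 10 genes (x axis, with SE as bars) for KO minus WT, HET minus WT and HET minus the midpoint of WT and KO. Wipi1 lies at -0.16 in KO and -0.08 in HET, and its distance from the midpoint is -0.0030, while the other 9 genes lie between -0.06 and 0.07 in the first 2 contrasts.

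Each comparison was then counted over the 10 genes. In KO against WT, 1 of 10 was called, the gene chosen on this contrast (1% of all genes were called), with 2 under 0.05 unadjusted, Wipi1 and Ulk1. Nothing is read from these counts, and the median of the 10 differences was 0.0030 against 0.0061 over all genes. In HET against WT, 0 of 10 were called (limma; 0.00422% of all genes) and 1 had an unadjusted p under 0.05, Wipi1. In KO against HET, 0 were called (0.118% of all genes) and 1, again Wipi1, was under 0.05 unadjusted. Against the midpoint, 0 were called (0.00422%) and 0 were under 0.05 unadjusted. Between males and females, 0 were called (0.333%), and Wipi2 alone was under 0.05 unadjusted, at 0.03 ± 0.01 higher in males (adjusted p = 0.341). The slope over RIN gave 0 calls (0.0633%), and Ulk1 alone was under 0.05 unadjusted, at -0.07 ± 0.03 per RIN unit (adjusted p = 0.479). The interactions of KO against WT gave 0 calls with sex (0% of all genes) and 0 with cohort (0.0338%), with 1 gene (Map1lc3b) and 0 genes under 0.05 unadjusted.

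More of these genes were called between cohorts than between genotypes. Map1lc3b, Becn1, Tfe3 and Tfeb rose in cohort 2 (12 mice) over cohort 1 (18 mice), 4 of 10 genes, where 8.09% of all genes rose and 9.42% fell. For each of the 4, all 12 cohort 2 brains were above the cohort 1 mean. Counts of brains between cohorts only describe the levels, because their share over all genes was not determined. Map1lc3b ranged from 8.20 to 8.44 (median 8.33) in cohort 1 and from 8.35 to 8.50 (8.43) in cohort 2, with 6 of 12 cohort 2 brains above every cohort 1 brain. It rose by 0.11 ± 0.02 (limma, adjusted p = 0.00215), or 7.76%. Becn1 ranged from 7.73 to 7.94 (7.77) and from 7.81 to 8.02 (7.85), and 14 of 18 cohort 1 brains were below every cohort 2 brain. It rose by 0.09 ± 0.02 (adjusted p = 0.00548). Becn1 overlaps Cntd1 in the table, which rose by 0.07 (adjusted p = 0.0184). Map1lc3b overlaps Gm20388 and Zcchc14, which stood at -0.04 and 0.0023 and were not called.

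Tfe3 ranged from 5.53 to 5.78 (median 5.69) in cohort 1 and from 5.70 to 5.90 (5.77) in cohort 2. Its cohorts overlapped in part, with 5 of 12 cohort 2 brains above every cohort 1 brain, and it rose by 0.11 ± 0.03 (adjusted p = 0.00357). Tfeb ranged from 3.91 to 4.52 (4.34) and from 4.39 to 4.64 (4.49), with 13 of 18 cohort 1 brains below every cohort 2 brain. It rose by 0.18 ± 0.05 (adjusted p = 0.0129), or 13.2%, the largest shift of the 10 genes. The rise had the same sign in WT, HET and KO and in both sexes for all 4 genes. For Map1lc3b the cohort means differed by 0.11 in WT, 0.05 in HET and 0.15 in KO, and for Tfeb by 0.22, 0.18 and 0.13. The other 6 genes were not called, from -0.04 ± 0.03 for Wipi1 (adjusted p = 0.348) to 0.05 ± 0.03 for Atg7 (adjusted p = 0.260). Mean RIN was 9.39 in cohort 1 and 9.23 in cohort 2, and RIN is a term of the fit.

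**Figure D3:**
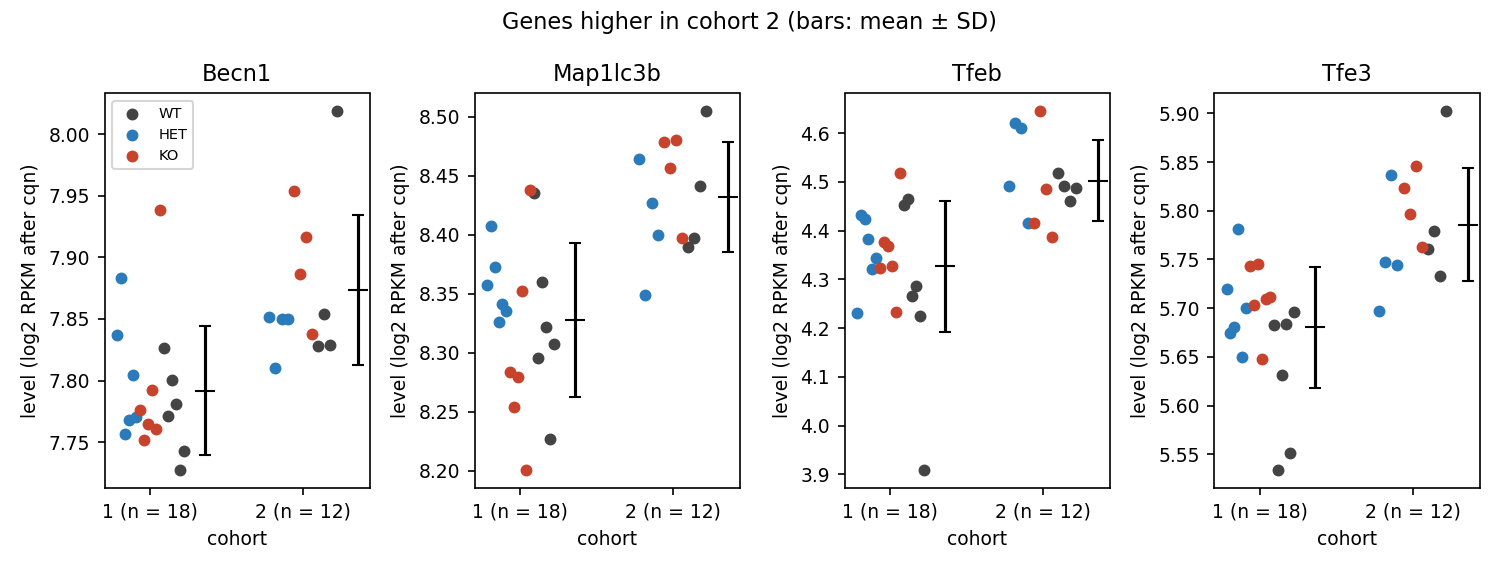
Levels of Becn1, Map1lc3b, Tfeb and Tfe3 in each brain (y axis, log2 RPKM after cqn) by cohort (x axis), coloured by genotype, with bars for mean ± SD. All 12 cohort 2 brains are above the cohort 1 mean in each panel; the Becn1 brain at 8.02 and the Tfeb brain at 3.91 are WT.

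Some markers of several cell types were also called between cohorts, where 8.09% of all genes rose and 9.42% fell. A count of 1 or 2 markers in a list is not read as a move of that cell type. Of the lists, mural cells had 3 of 5 markers higher in cohort 2 (mean of the list 6.71 to 7.14 in cohort 1 and 6.95 to 7.22 in cohort 2). Endothelial cells had 2 of 6 higher (6.42 to 6.85 and 6.58 to 6.91), and oligodendrocytes and myelin 4 of 14 (8.62 to 9.04 and 8.70 to 9.11). Neuron markers had 1 higher and 2 lower of 8 (10.79 to 10.84 and 10.77 to 10.84), and 1 of 7 astrocyte markers and 1 of 5 oligodendrocyte precursor markers were lower. Their part in the rise of the 4 genes was not tested. In whole hemispheres, fewer cells of a type and less RNA per cell cannot be told apart.

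Other genes of the pathway were read from 8 lists with 75 genes, of which 74 passed the filter (Tfec did not) and 64 are not among the 10. Between cohorts, 17 of the 64 were called (26.6%, against 17.5% of all genes), 6 higher and 11 lower, so the pathway did not move one way. Those that rose include Map1lc3b's relatives Map1lc3a (0.08 ± 0.02, adjusted p = 0.0226) and Gabarap (0.10 ± 0.02, adjusted p = 0.00451), 2 of the 4 other LC3 and GABARAP genes. Vamp8, a SNARE of membrane fusion, rose by 0.16 ± 0.05, the conjugating enzyme Atg10 by 0.16 ± 0.05, the folliculin partner Fnip2 by 0.14 ± 0.03 and the GTPase Rheb, which activates mTORC1, by 0.10 ± 0.02.

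Genes that fell in cohort 2 were spread over cargo receptors, the lipid kinase complex and mTORC1 control. Of 11 cargo receptors 4 fell: the ferritin receptor Ncoa4 by 0.16 ± 0.03 (adjusted p = 0.000743), Calcoco1 by 0.11 ± 0.02 (adjusted p = 0.000476), the ubiquitin receptor Sqstm1 by 0.07 ± 0.02 (adjusted p = 0.00360) and Tollip by 0.05 ± 0.02 (adjusted p = 0.0401). In the lipid kinase complex, where Becn1 rose, its catalytic partner Pik3c3 fell by 0.09 ± 0.03 (adjusted p = 0.0157) and Uvrag by 0.07 ± 0.02 (adjusted p = 0.0310), 2 of 7 genes. The LC3 protease Atg4c fell by 0.07 ± 0.03 (adjusted p = 0.0495). Of the 17 other transcription and mTORC1 regulators 4 fell: the mTORC1 inhibitor Deptor by 0.12 ± 0.04, the kinase Mtor by 0.06 ± 0.02, Tsc2, which restrains Rheb, by 0.06 ± 0.02 and the GTPase Rraga by 0.05 ± 0.02. The lists for initiation (4 genes beside Ulk1) and for membrane supply and PI3P effectors (7 beside Wipi1, Wipi2 and Atg9a) had 0 calls.

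Between genotypes, 0 of the 64 were called in KO against WT, in HET against WT or in KO against HET (limma), with 7, 4 and 6 at an unadjusted p under 0.05. Over all genes, 12%, 6.32% and 8.66% were under 0.05 unadjusted. Their KO minus WT differences ranged from -0.05 to 0.09 with a median of 0.01. By absolute size, the largest in each list were all above 0, though none was called and nothing is read from their shared sign. They were the fusion SNARE Snap29 (0.09 ± 0.04, adjusted p = 0.307), Nrbf2 of the lipid kinase complex (0.08 ± 0.03, adjusted p = 0.277), the LC3 protease Atg4a (0.07 ± 0.06) and the mitophagy receptor Bnip3 (0.06 ± 0.03). Rb1cc1, the scaffold of the Ulk1 complex, stood at 0.06 ± 0.02, the transcription factor Foxo3 at 0.05 ± 0.03, the lipid transfer protein Atg2b at 0.05 ± 0.02 and Gabarapl2 at 0.04 ± 0.03. The sex, RIN, midpoint and interaction tests also gave 0 of 64, with between 3 and 8 genes under 0.05 unadjusted.

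Relations among the 10 genes were examined over the 30 mice after removing each genotype's mean, as 45 pairs with permutation p values (100000 resamples, two-sided) adjusted over the 45. Of these, 11 pairs were called, 9 of them positive, and 10 by Spearman's rho. How many pairs of other genes would be called in this way was not counted, so nothing is read from the number. Cohort is not removed in these values, and 4 of the genes differ between cohorts. On residuals with genotype, sex, cohort and RIN removed, 2 pairs were called, Becn1 with Map1lc3b (r = 0.812, adjusted permutation p = 0.00045) and Wipi2 with Atg9a (r = -0.573, adjusted permutation p = 0.0261), and the other 9 were not. The permutation counts the 30 residuals as independent, but the fitted terms leave fewer free values, so these p values are too low. The call of Wipi2 with Atg9a, near the threshold, is therefore not secure. Values with only genotype means removed share this limit to a smaller degree. Becn1 and Map1lc3b, which sit on different chromosomes (11 and 8), were the closest pair: r = 0.877 and rho = 0.912 (adjusted p = 0.00045 for both, from the smallest p the permutations can give, 1e-05), r = 0.872 without the 2 mice farthest from the median of Becn1, 0.819 in cohort 1 and 0.791 in cohort 2. Atg7 followed both of them, at r = 0.525 with Map1lc3b (rho 0.510, adjusted p = 0.0172, cohorts 0.605 and 0.364) and 0.477 with Becn1 (rho 0.481, adjusted p = 0.0345, cohorts 0.485 and 0.275). Atg9a and Ulk1 were related at r = 0.524 (rho 0.498, adjusted p = 0.0172, cohorts 0.497 and 0.549).

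**Figure D4:**
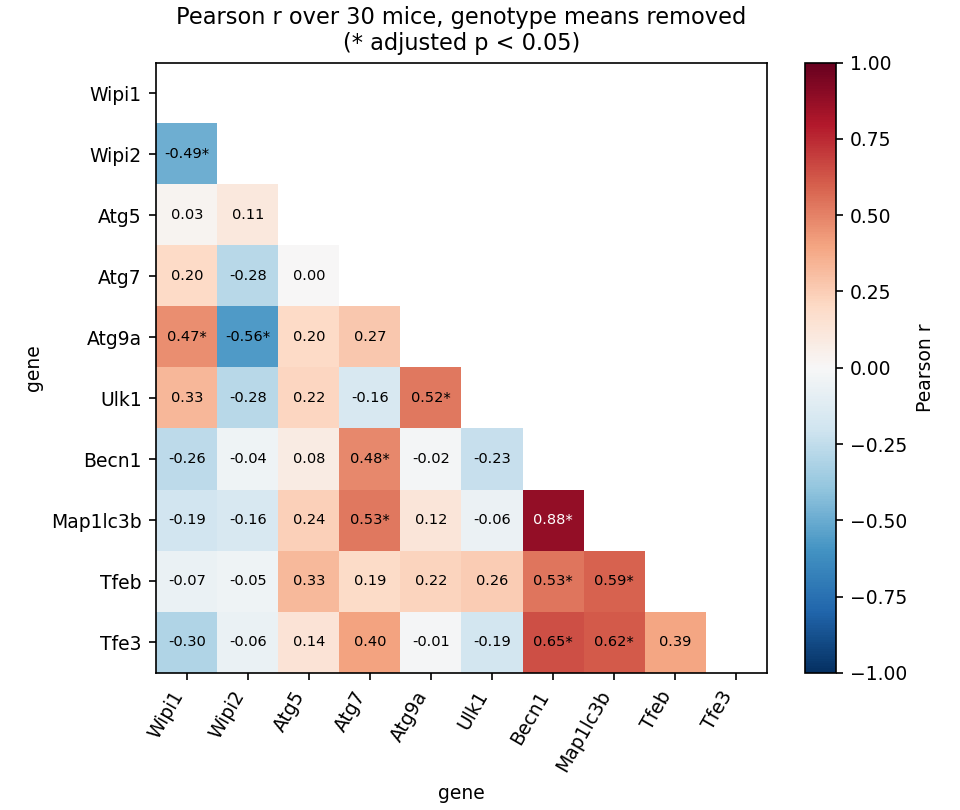
Pearson r for the 45 pairs of genes over 30 mice after removing genotype means, in colour and figures, with an asterisk where the adjusted permutation p is under 0.05. Becn1 and Map1lc3b have the highest r at 0.88, each is at 0.53 to 0.65 with Tfeb and Tfe3 before cohort is removed, and Wipi2 is negative with Wipi1 (-0.49) and Atg9a (-0.56).

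A further 4 positive pairs joined Becn1 and Map1lc3b to the transcription factors, but all 4 genes rose in cohort 2, and none of these pairs was called once cohort was removed with the other terms. Becn1 and Tfe3 had r = 0.646 (rho 0.524, adjusted p = 0.00202), at 0.0134 in cohort 1 and 0.772 in cohort 2. Map1lc3b and Tfe3 had r = 0.616 (rho 0.522, adjusted p = 0.0042), at 0.151 and 0.480. Map1lc3b and Tfeb had r = 0.587 (rho 0.651, adjusted p = 0.00484) and Becn1 and Tfeb 0.532 (rho 0.638, adjusted p = 0.0172). In cohort 1 these last were 0.470 and 0.432, and in cohort 2 they were -0.0644 and -0.0765. On the residuals r was 0.388 for Becn1 and Tfe3, 0.316 for Map1lc3b and Tfe3, 0.287 for Map1lc3b and Tfeb and 0.257 for Becn1 and Tfeb. Without the 2 mice farthest from the median of the first gene, r ranged from 0.432 to 0.577 over these 4 pairs, the Atg7 pairs and Atg9a with Ulk1. Both values of a pair come from the same library.

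The paralogues Wipi1 and Wipi2 moved in opposite directions between mice, r = -0.490 (permutation p = 0.00651, adjusted p = 0.0325), at -0.573 in cohort 1 and -0.668 in cohort 2. The rank relation was weaker, rho = -0.389, and did not pass (adjusted p = 0.132), and without the 2 mice farthest from the Wipi1 median r was -0.427. On the residuals r was -0.504 (adjusted permutation p = 0.0691). Wipi2 was also negative with Atg9a, r = -0.563 (rho -0.543, adjusted p = 0.0114; -0.538 without the 2 farthest mice), mostly in cohort 2 (-0.842 against -0.135 in cohort 1). Wipi1 was positive with Atg9a, r = 0.467 (adjusted p = 0.0403; rho 0.401, adjusted p = 0.12), again mostly in cohort 2 (0.767 against 0.171). It fell to 0.303 without the 2 farthest mice, so this relation rests on them in part. With Becn1, Map1lc3b, Tfeb and Tfe3, Wipi1 had r between -0.301 and -0.0679, none called.

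**Figure D5:**
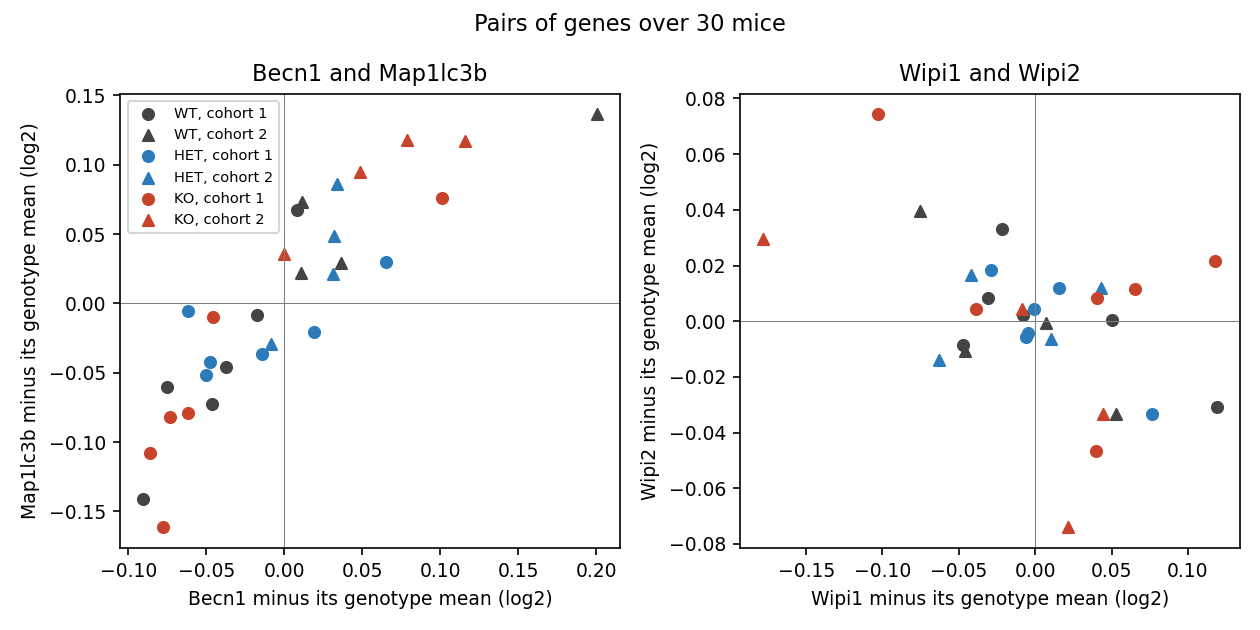
Each mouse's level minus its genotype mean (log2, both axes) for Becn1 and Map1lc3b (left) and Wipi1 and Wipi2 (right), with colours for genotype and shapes for cohort. Becn1 and Map1lc3b rise together in both cohorts (r = 0.877), and Wipi1 and Wipi2 are weakly opposed (r = -0.490).

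Among 17058 genes with a mean above 3, the 5 whose values followed Wipi1 most closely over the 30 mice, with genotype means removed, were C230021G24Rik, H2afy2, Rnf123, Gm7276 and Bbs10. Their r to Wipi1 was 0.717, 0.690, 0.675, 0.672 and 0.663, and their rho 0.653, 0.511, 0.482, 0.477 and 0.636. They were chosen as the highest of all, so no p is given. Without the 2 mice farthest from the Wipi1 median, r was 0.568, 0.477, 0.443, 0.426 and 0.593. Of the other 9 autophagy genes, Atg9a ranked highest, at place 329, and Wipi2 was among the most negative, at place 16853.

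Markers of oligodendrocytes moved with genotype beside Wipi1. Of 14 oligodendrocyte and myelin markers, 13 fell in KO against WT, and the mean of the list ranged from 8.92 to 9.11 in WT, 8.86 to 9.00 in HET and 8.62 to 8.87 in KO. Within genotypes, Wipi1 had r = -0.154 with that mean (permutation p = 0.418, adjusted over the 10 genes 0.471; rho -0.135), at 0.256 in cohort 1 and -0.337 in cohort 2. With genotype means removed, none of the 10 genes was called against it (lowest unadjusted p 0.0172, Tfe3). On residuals of the fit with cohort, sex and RIN removed as well, Atg5 was called (r = -0.517, adjusted permutation p = 0.0348), with -0.595 in cohort 1 and -0.445 in cohort 2. Tfe3 was at -0.0192 on these residuals. The permutation counts the residuals as independent, which makes p too low, so the Atg5 call, near the threshold, is not secure. How many of all genes would be called against that mean in this way was not counted. Over all genes, 1% were called in KO against WT. Endothelial markers had 1 of 6 lower in KO, and astrocyte and microglia markers had 1 of 7 and 1 of 8 higher. Each of these lists held differences of both signs, and 1 called marker is not read as a move of that cell type. Of 5 oligodendrocyte precursor markers 0 were called, with a median difference of -0.10. The part of cell composition in the Wipi1 difference was not tested.

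On this length-scaled log2 RPKM scale the order of mean levels over 30 brains was Map1lc3b (8.37), Ulk1 (8.24), Atg9a (8.12), Becn1 (7.82), Wipi2 (7.58), Atg5 (7.08), Wipi1 (6.21), Atg7 (5.96), Tfe3 (5.72) and Tfeb (4.40). Neighbouring ranges overlapped for Map1lc3b and Ulk1, Ulk1 and Atg9a, Atg9a and Becn1, Wipi1 and Atg7, and Atg7 and Tfe3. Within a brain the order was nearly fixed: Map1lc3b was above Ulk1 in 28 of 30 and Ulk1 above Atg9a in 29 of 30, and every other neighbour pair kept its order in 30 of 30. The within-genotype SD ran from 0.03 for Wipi2 to 0.15 for Tfeb, the gene of lowest level.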

How the data were processed

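The authors deposited a table of 34871 genes by 30 samples in log2 RPKM after conditional quantile normalization (cqn), which removes trends with length and GC content, per the file headers. Per the submitters' processing notes, the tools were TopHat2 2.0.12 and Bowtie 1.1.0 and the build mm10. The sources used here do not give the counter, annotation release, strand setting or handling of reads with several matches, so reads of overlapping genes or near-identical copies cannot be told apart. No pseudocount was added, and the values carry no read depth.

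Columns were matched to mice by title. Each is a different mouse. Replicate numbers follow sample order and do not pair mice. The members and gene lists were chosen with earlier results of these data known. Genes with a mean above 0 (23695) were fitted in limma 3.58.1 under R 4.3.3. The model held genotype, sex, cohort and RIN for the 30 libraries together, with eBayes and an intensity trend, two-sided, adjusted by Benjamini-Hochberg over all genes at 0.05. The code was tested on simulated data. Pairs were tested by permutation (100000 resamples) in numpy 2.4.6, with ranks from scipy 1.17.1. Named pathway genes are those called plus the one with the largest absolute KO minus WT difference per list. Alternatives were no filter, a mean above 3, quantile normalization, other eBayes settings, the plate column in the sample titles, genotype alone, each sex, each cohort, only the compared groups, and each library left out. Promoters came from RefSeq.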

Additional observations from a re-analysis of the deposited data

Results flagged for a closer look

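Of 30 gene and genotype groups examined, 2 held a mouse far from the other 9, where chance flags about 1 in 20 groups. Becn1 in WT replicate 10, a male of cohort 2, was the highest of its group at 8.02, with the next WT brain at 7.85. Without this library the cohort difference of Becn1 was 0.07 in place of 0.09 and was still called (adjusted p = 0.0225). Tfeb in WT replicate 8, a male of cohort 1, was the lowest at 3.91, with the next at 4.22. Without it the cohort difference of Tfeb was 0.15 in place of 0.18, and the KO minus WT difference 0.0076 in place of 0.05.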

How the results depend on the processing

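No paired analysis was possible because the replicate numbers follow the order of the samples. The KO minus WT difference of Wipi1 ranged from -0.21 (males alone) to -0.13 (females alone) over 12 settings and from -0.18 to -0.14 with a library left out. In HET against WT, Wipi1 ranged from -0.11 to -0.07 and was called under none of these 12 settings or 30 fits (adjusted p 0.590 to 1.00). The cohort rise of Becn1, Map1lc3b, Tfeb and Tfe3 was called with each of the 30 libraries left out and under the 6 other settings. The other pathway genes called between cohorts were 11 with plate column as a term, and 10 (without KO replicate 4) to 19 (without WT replicate 4) with a library left out, against 17; the cause was not tested. Between sexes, 4 of them were called with no filter, where 9087 genes were called in place of 79. Pairs called were 2 on residuals of the fit with genotype, sex, cohort and RIN, 1 in cohort 1 alone and 4 in cohort 2 alone, against 11; the single cohorts hold fewer mice. In cohort 2 alone r turned for Becn1 and Tfeb (-0.0765) and for Map1lc3b and Tfeb (-0.0644). On residuals, 1 gene, Atg5, was related to the oligodendrocyte mean (r = -0.517), against 0. The permutation p values on residuals are too low, because the 30 residuals are counted as independent, so calls near the threshold are not secure. Genes called in KO against WT were 144 with genotype alone, 114 with only those groups, 13 in females, 15 in males, 482 in cohort 1, 4 in cohort 2, and 138 to 388 with a library left out, against 237. Read depth is unknown, and the smallest differences described here are within the spread of 10 mice.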
